A study of Mus musculus with 22 samples.

Results

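Hmga2, Lin28a, Lin28b, Igf2bp1, Igf2bp2, Igf2bp3, Trim71 and Arid3b are textbook mRNA targets of the let-7 microRNA family. These 8 genes were chosen by name, for that role, at a time when earlier results of these data were known, and all 8 were found among the 52636 genes of the count table and passed the filter on low counts in both sequencing runs. Of these, 3 rose in mouse oocytes of Dicer mutants that reduce or remove the oocyte form of Dicer. Igf2bp1, which had the lowest level of the 8 in wild type, increased 5.92-fold and 21.1-fold in the 2 single-end mutants. Hmga2 increased about 2.6-fold in both, and Trim71 1.95-fold in one of them. The remaining 5 genes passed the test as higher in no comparison of genotypes, and 4 of them were lower than wild type in at least 1 mutant. Of all genes tested, 8.06% were higher and 7.3% lower than wild type in Dicer ΔMT/ΔMT. In Dicer SOM/SOM, 14.5% were higher and 14.2% lower.

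let-7 is a family of microRNAs that Dicer cuts from short hairpin precursors and that Argonaute proteins carry to mRNAs. Bases 2 to 8 of the microRNA, the seed, pair with matching bases in the 3' UTR of the mRNA, which represses translation and speeds up decay of the mRNA. The family is known for holding back growth and stem cell genes as cells differentiate, and LIN28 proteins in turn block the maturation of let-7, so that target and microRNA oppose each other. Mouse oocytes are unusual in that microRNAs have little activity in them, while a short oocyte form of Dicer, DicerO, produces abundant endogenous siRNAs that feed RNA interference (RNAi). A gene with let-7 sites may also be a target of such siRNAs: the list of putative RNAi targets that the study compiled from published oocyte small RNA data holds Hmga2 and Trim71 and none of the other 6 genes.

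RNA-seq of fully grown germinal vesicle (GV) oocytes, pooled for each library, was available for 22 samples from mice labelled C57BL/6, in 2 runs that were analysed apart. In the single-end run there were 3 wild type samples, 4 of Dicer ΔMT/ΔMT, 3 of Dicer SOM/SOM and a lone one of Dicer ΔMT/WT, of ages not given in the labels. The ΔMT allele lacks the retrotransposon (MTC) promoter of DicerO but keeps a further LTR (MTA) from which a short Dicer can start. The SOM allele lacks introns 2 to 6, encodes an HA-tagged full-length Dicer, and goes back to 1 embryonic stem cell clone; it leaves neither LTR and is carried in every cell of the mouse. The paired-end run held controls heterozygous for both alleles (Dicer SOM/WT, Mili DAH/WT, n = 4, aged 36, 38, 10 and 17 weeks), RNAi mutants (Dicer SOM/SOM, Mili DAH/WT, n = 2, 17 and 13 weeks), double mutants (Dicer SOM/SOM, Mili DAH/DAH, n = 4, 40, 35, 11 and 11 weeks) and 1 piRNA mutant (Dicer SOM/WT, Mili DAH/DAH, 16 weeks). DAH replaces a catalytic residue of MILI, a protein of the piRNA pathway, so every paired-end mouse carried at least 1 SOM and 1 DAH allele, controls included. The labels number the replicates, which differ in age within the groups of the paired-end run, but do not name the animals, and the p-values measure the spread between these samples.

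Single-end libraries had 6468380 (Dicer SOM/SOM replicate 3) to 90713013 counts, and paired-end libraries 22928936 to 43540806. A floor of 3 counts corresponded to 0.0355 to 0.435 CPM (a gene's share of all counts of its library, scaled to a common depth) in the former and 0.0677 to 0.130 CPM in the latter, for counting error only. All 14 oocyte markers had counts in every sample and summed to between 15125 and 18942 CPM, whereas 12 granulosa and cumulus markers summed to between 85.1 and 162 CPM and 9 blood and immune markers to between 73.4 and 148 CPM, of which Hbb-bs and Hba-a1 had at most 4 counts in any library. Blood and immune sums were lower in Dicer SOM/SOM (73.4 to 98.8 CPM) than in wild type (115 to 129 CPM). Most of that sum was Ms4a1 and Ighm, with wild type means of 48.5 and 75.05 CPM. Their log2 fold changes in Dicer SOM/SOM were -0.641 and -0.469, and only Ms4a1 passed the test. Ptprc, Cd79a and Cd3e reached at most 0.440, 0.334 and 0.327 CPM in any library. Granulosa and cumulus sums were lower in RNAi mutants (100.1 and 106 CPM) than in controls (107 to 162 CPM). Nr5a2, with a control mean of 76.9 CPM, was the largest part of these sums in controls. In Dicer SOM/SOM against wild type, 2 of 14 oocyte, 2 of 12 granulosa and cumulus and 1 of 5 tested blood and immune markers passed the test. In each of the first 2 lists 1 marker was higher and 1 lower, and the blood and immune marker was lower. Of all genes there, 14.5% were higher and 14.2% lower. In double mutants against controls, 1 oocyte and 1 granulosa and cumulus marker were lower and 2 blood and immune markers higher. Of all genes in that comparison, 12.3% were higher and 8.84% lower. The oocyte kinase gene Mos was lower in all 4 mutants (log2 fold change -0.37 in Dicer ΔMT/ΔMT, -0.31 in Dicer SOM/SOM, -0.79 in RNAi and -0.60 in double mutants). Nobox, the other oocyte marker called in Dicer SOM/SOM, was higher there (0.43). The median log2 fold change of the 14 oocyte markers was 0.002, 0.03, 0.04 and -0.01 in the same order of mutants. The part of these differences in the results was not tested. Dicer1 was at 1001, 1003 and 1057 CPM in wild type, 428 to 536 CPM in Dicer ΔMT/ΔMT, 723 CPM in Dicer ΔMT/WT and 41.9 to 54.9 CPM in Dicer SOM/SOM. In the paired-end run it was at 502 to 763 CPM in the heterozygous controls, 596 CPM in the piRNA mutant and 53.2 to 62.1 CPM in RNAi and double mutants, so no library went against its Dicer label. Libraries differed in counts on Gm42418, a gene that overlaps ribosomal RNA: 6 paired-end libraries, including both RNAi mutants, had 4120 to 5515 CPM and 5 had 299 to 567 CPM, and Dicer SOM/SOM replicates 1 and 3 stood at 13030 and 18575 CPM. No label explains these sets. Values within the paired-end sets, or with a term for them, are given where they changed a call.

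The mature let-7 sequences show why the family shares its targets. The following are the 5p strands from RefSeq (GRCm38.p6) for 3 members whose 3' ends differ, with the seed in capitals.

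mmu-let-7a-5p: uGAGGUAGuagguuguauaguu

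mmu-let-7d-5p: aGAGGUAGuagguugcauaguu

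mmu-miR-98-5p: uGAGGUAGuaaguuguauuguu

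All 9 mature sequences of the family in that table held this seed. The longest annotated 3' UTR of each protein-coding gene (GENCODE M21, GRCm38, coding strand only) was searched for the reverse complement of the seed followed by A, CTACCTCA, called an 8mer, and for CTACCTC without that A, called a 7mer-m8. At least 1 match was found in all 8 genes, as against 8.585% of 21899 protein-coding genes. Any genes without an annotated 3' UTR were kept and counted as without a match. Hmga2, Trim71, Igf2bp1 and Lin28b held 4 matches each, a number reached by 12 genes, 0.055% of these protein-coding genes. Lin28a held 2, and Igf2bp2, Igf2bp3 and Arid3b held 1 each. Because the 8 genes were chosen as let-7 targets, these shares describe them and are not a test. Their UTRs were also long, at 1784 to 6337 bases, against a median of 1075 for protein-coding genes tested in the single-end run. A further match, TACCTCA (7mer-A1), as long as the 7mer-m8, was not counted. Arid3b holds 4 of these, Hmga2 3, Trim71 2, and Igf2bp1, Igf2bp2 and Lin28b 1 each. With them, Arid3b has 5 matches, as many as Igf2bp1 and Lin28b, while Hmga2 has 7 and Trim71 6. The sites below are those nearest to the stop codon in each gene, with the further 8mers of Igf2bp1 and the closest pair of 8mers in Trim71, and the capitals mark the match.

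Hmga2, 8mer, base 58 of the UTR, chr10:120364224-120364245, minus strand: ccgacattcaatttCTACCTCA

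Trim71, 8mer, base 166, chr9:114512472-114512493, minus strand: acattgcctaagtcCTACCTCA

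Trim71, 8mer, base 3591, chr9:114509047-114509068, minus strand: ttagtatggattttCTACCTCA

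Trim71, 8mer, base 3617, chr9:114509021-114509042, minus strand: tggcaaaaagttgtCTACCTCA

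Igf2bp1, 8mer, base 1715, chr11:95961778-95961799, minus strand: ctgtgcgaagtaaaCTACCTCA

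Igf2bp1, 8mer, base 4136, chr11:95959357-95959378, minus strand: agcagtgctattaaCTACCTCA

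Igf2bp1, 8mer, base 4730, chr11:95958763-95958784, minus strand: tataaatggatgaaCTACCTCA

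Lin28b, 8mer, base 36, chr10:45381022-45381043, minus strand: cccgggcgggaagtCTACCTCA

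Lin28a, 8mer, base 909, chr4:134005189-134005210, minus strand: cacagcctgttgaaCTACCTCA

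Igf2bp2, 8mer, base 1313, chr16:22059473-22059494, minus strand: cacacaaataaaagCTACCTCA

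Igf2bp3, 8mer, base 548, chr6:49086787-49086808, minus strand: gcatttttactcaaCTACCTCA

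Arid3b, 7mer-m8, base 2148, chr9:57790361-57790382, minus strand: atttcaataaagctCTACCTCt

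The only counted match of Arid3b lies close to the end of a UTR of 2160 bases. A match is a description of the annotated sequence, and which 3' ends the oocyte uses was not analysed here.

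**Figure D1:**
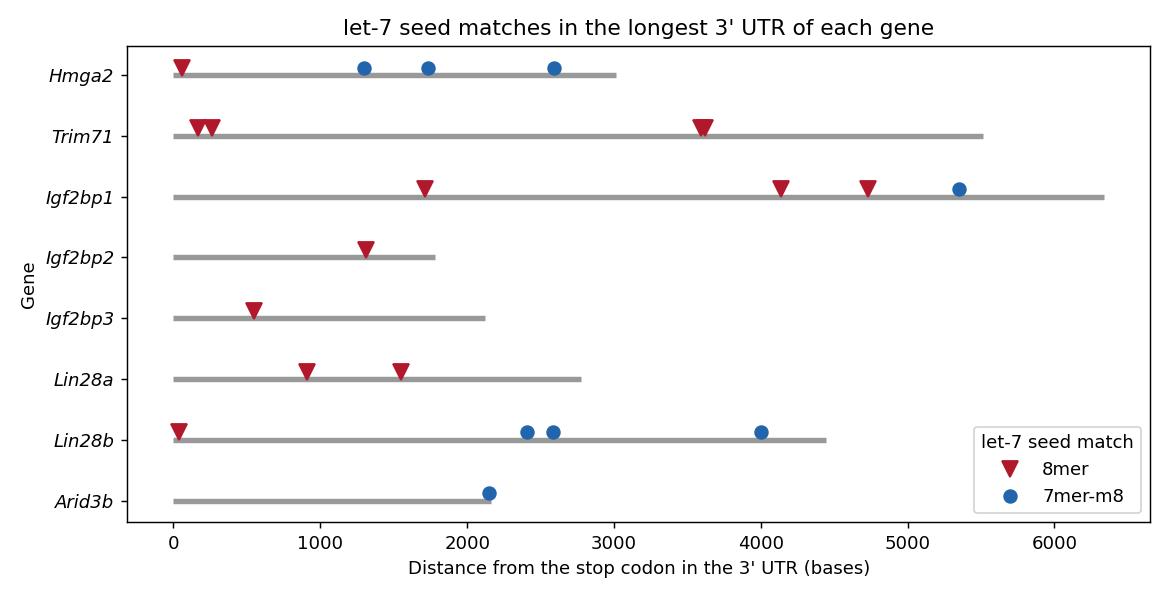
let-7 seed matches in the longest annotated 3' UTR of each gene. The x axis gives the distance from the stop codon in bases, grey bars the length of the UTR, triangles 8mers and circles 7mer-m8 matches. Trim71 has 4 8mers, Igf2bp1 has 3 and the remaining genes have at most 2.

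Levels were compared between genes per length, as RPKM. In wild type, Igf2bp2 led at 196 RPKM, followed by Lin28a at 44.8, Igf2bp3 at 23.8, Trim71 at 14.8, Arid3b at 11.4, Hmga2 at 11.1 and Lin28b at 8.74 RPKM, while Igf2bp1 stood at 0.126 RPKM. Trim71 and Arid3b overlapped in their samples, as did Arid3b and Hmga2; the other neighbours in that order did not. The paired-end controls had the same gene first and the same gene last, with Igf2bp2 at 184 and Igf2bp1 at 0.0948 RPKM. Between them, Hmga2 (17.6 RPKM) overlapped with both Igf2bp3 (21.7) and Trim71 (15.3), and Lin28b (10.9) with Arid3b (7.35). Igf2bp1 was last in all 8 groups, mutants included, where it reached 2.67 RPKM in Dicer SOM/SOM.

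**Figure D2:**
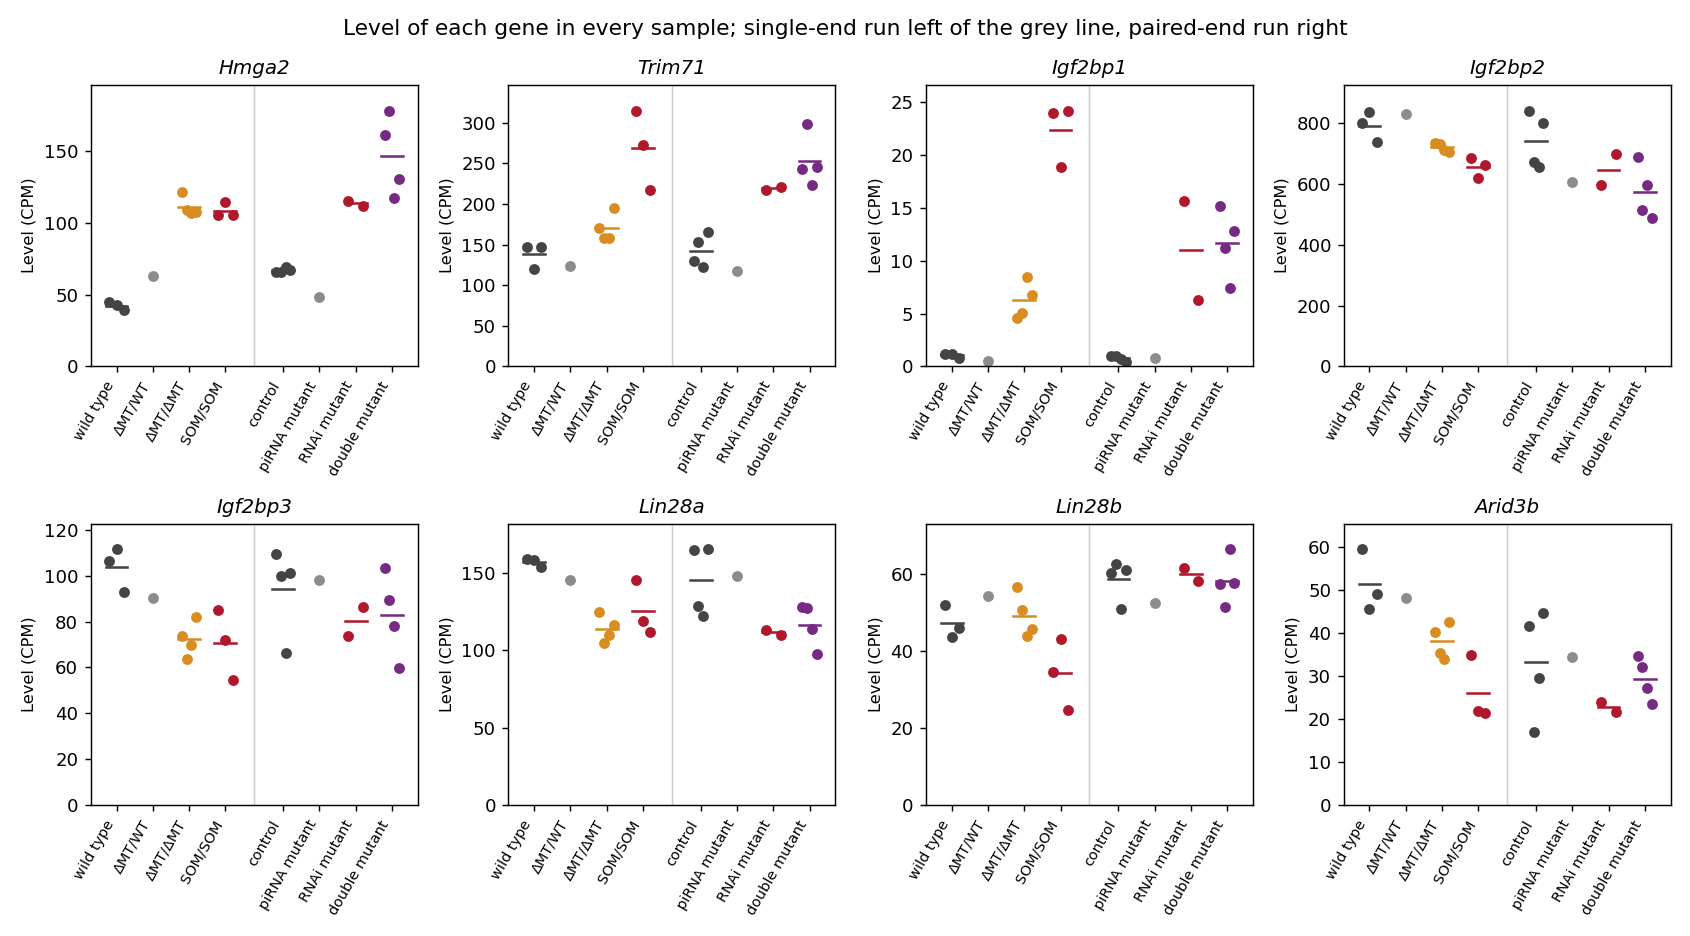
Level of the 8 genes in every sample, in CPM after TMM normalization; points are samples and horizontal lines group means, with the single-end run left of the grey line and the paired-end run right of it. Hmga2 and Igf2bp1 are higher in every Dicer ΔMT/ΔMT, Dicer SOM/SOM, RNAi and double mutant sample than in any wild type or control sample of the same run.

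Hmga2 (ENSMUSG00000056758.14, chr10:120361275-120476469) encodes an architectural chromatin protein of embryonic and stem cells. Its level was 45.0, 42.6 and 39.4 CPM in wild type, 121, 109, 107 and 108 CPM in Dicer ΔMT/ΔMT, and 105, 114 and 105 CPM in Dicer SOM/SOM. Every mutant sample lay above every wild type sample, and the 2 mutants overlapped. The Dicer ΔMT/WT sample, at 63.1 CPM, lay between them, at 149% of the wild type mean. On the log2 scale Hmga2 rose by 1.39 (SE 0.08, adjusted p = 2.3e-05, edgeR quasi-likelihood test) in Dicer ΔMT/ΔMT and by 1.36 (SE 0.09, adjusted p = 2.1e-06) in Dicer SOM/SOM. The difference of -0.04 (SE 0.08) between the mutants did not pass the test (adjusted p = 0.85), whereas Dicer1 itself was lower in Dicer SOM/SOM than in Dicer ΔMT/ΔMT (log2 difference -3.28, SE 0.12).

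Control oocytes of the paired-end run had 65.8, 65.7, 69.4 and 66.8 CPM of Hmga2, RNAi mutants 115 and 112 CPM, and double mutants 161, 178, 117 and 131 CPM. The controls lay within a narrow range below both mutants, and the piRNA mutant, at 48.4 CPM, was below all of them. Hmga2 rose by 0.76 (SE 0.16, adjusted p = 0.0066) in RNAi mutants and by 1.13 (SE 0.14, adjusted p = 4.5e-05) in double mutants. Without RNAi replicate 1 the difference in RNAi mutants was 0.73 and no longer passed the test (adjusted p = 0.064), whereas without replicate 2 it did (0.79, adjusted p = 0.045). In both, the lone RNAi sample was assumed to vary like the other groups. The 2 older double mutants had the highest values, but neither the difference between double and RNAi mutants (0.37, SE 0.17, unadjusted p = 0.044, adjusted p = 0.9997) nor that between age classes (0.18, SE 0.13, adjusted p = 0.91) passed the test.

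Trim71 (ENSMUSG00000079259.2, chr9:114507133-114564369), the mouse lin-41, is an RNA-binding ubiquitin ligase and one of the first let-7 targets described. Wild type samples had 147, 120 and 147 CPM and Dicer ΔMT/ΔMT samples 170, 158, 158 and 194 CPM. The 2 groups did not overlap, but the increase of 0.30 (SE 0.13) did not pass the test (adjusted p = 0.15). Dicer SOM/SOM samples had 315, 272 and 217 CPM, all above the other single-end samples. There Trim71 rose by 0.96 (SE 0.14, adjusted p = 5.2e-04) over wild type and by 0.66 (SE 0.13, adjusted p = 0.012) over Dicer ΔMT/ΔMT. Unlike Hmga2, it therefore differed between the 2 Dicer mutants. The Dicer ΔMT/WT sample, at 123 CPM, was within the range of wild type.

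In the paired-end run Trim71 was at 130, 153, 122 and 165 CPM in controls, 218 and 221 CPM in RNAi mutants and 243, 298, 224 and 245 CPM in double mutants, with no overlap between controls and mutants. It rose by 0.62 (SE 0.15, adjusted p = 0.018) and 0.82 (SE 0.13, adjusted p = 4.1e-04). The call in RNAi mutants was lost without RNAi replicate 1 (0.63, adjusted p = 0.099), without RNAi replicate 2 (0.62, adjusted p = 0.10) and among animals of at most 17 weeks (0.60, adjusted p = 0.098). The piRNA mutant had 118 CPM, just below the controls.

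Igf2bp1 (ENSMUSG00000013415.9, chr11:95957163-96005940) encodes an RNA-binding protein of embryonic tissues that stabilises mRNAs. It was low but above the floor of 3 counts in wild type, at 1.22, 1.17 and 0.769 CPM (82, 68 and 47 counts), and reached 4.63, 5.09, 8.51 and 6.75 CPM in Dicer ΔMT/ΔMT and 23.99, 18.9 and 24.2 CPM in Dicer SOM/SOM. The 3 groups did not overlap. Igf2bp1 rose by 2.57 (SE 0.25, adjusted p = 9.9e-05) in Dicer ΔMT/ΔMT and by 4.40 (SE 0.27, adjusted p = 1.7e-06) in Dicer SOM/SOM, and was higher in the latter by 1.83 (SE 0.22, adjusted p = 7.4e-04). At 0.521 CPM the Dicer ΔMT/WT sample was below every wild type sample.

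Controls of the paired-end run had 0.984, 1.03, 0.694 and 0.466 CPM of Igf2bp1, RNAi mutants 15.7 and 6.29 CPM, double mutants 15.2, 11.2, 7.46 and 12.9 CPM and the piRNA mutant 0.780 CPM. All samples homozygous for SOM exceeded all others, and the 2 RNAi mutants lay further apart than any pair of double mutants. The rises of 3.76 (SE 0.39, adjusted p = 2.3e-05) and 3.86 (SE 0.35, adjusted p = 4.3e-06) were the largest of the 8 genes in those comparisons. Without RNAi replicate 1, which had the higher value, the rise in RNAi mutants was 2.96, and without replicate 2 it was 4.29; both kept the call.

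Igf2bp2 (ENSMUSG00000033581.16) and Igf2bp3 (ENSMUSG00000029814.10) are paralogs of Igf2bp1 with the same type of RNA-binding domains, and neither rose. Igf2bp2 was the most abundant of the 8 genes, at 800, 836 and 737 CPM in wild type, 706 to 733 CPM in Dicer ΔMT/ΔMT and 686, 618 and 664 CPM in Dicer SOM/SOM, where every sample was below wild type. It fell by 0.27 on the log2 scale (SE 0.07, adjusted p = 0.019) in Dicer SOM/SOM. Every Dicer ΔMT/ΔMT sample was also below wild type, but the difference of -0.13 (SE 0.07) did not pass the test (adjusted p = 0.22). The call was lost without wild type replicate 1 (adjusted p = 0.059) or 2 (adjusted p = 0.079). Paired-end controls had 841, 671, 657 and 800 CPM, RNAi mutants 595 and 699 CPM and double mutants 688, 516, 596 and 489 CPM, and both mutants overlapped with controls. Neither log2 difference passed the test, -0.20 (SE 0.17, adjusted p = 0.53) in RNAi mutants and -0.38 (SE 0.13, adjusted p = 0.063) in double mutants. With a term for the libraries with more and fewer ribosomal RNA counts, the latter passed it (-0.38, adjusted p = 0.0066), as it did without double replicate 1 (adjusted p = 0.026) or control replicate 3 (adjusted p = 0.047).

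Igf2bp3 was at 106, 111 and 93.0 CPM in wild type, 63.6 to 82.2 CPM in Dicer ΔMT/ΔMT and 85.2, 72.1 and 54.6 CPM in Dicer SOM/SOM. Both mutants lay below wild type and overlapped each other. It fell by 0.52 (SE 0.14, adjusted p = 0.030) and by 0.54 (SE 0.15, adjusted p = 0.022) on the log2 scale. Both calls were lost without wild type replicate 1 (adjusted p = 0.095 and 0.061) or 2 (0.11 and 0.073), and that in Dicer ΔMT/ΔMT also without its replicates 1, 2 or 3 (adjusted p = 0.062, 0.083 and 0.078). In the paired-end run controls had 66.4 to 110 CPM, RNAi mutants 73.8 and 86.3 CPM and double mutants 59.9 to 104 CPM, and the groups overlapped. The log2 differences from controls were -0.24 (SE 0.23, adjusted p = 0.59) and -0.19 (SE 0.18, adjusted p = 0.53). Igf2bp3 shares 1529 bases, 35.2% of its exons, with Malsu1 on the opposite strand, which was at 40.1 to 48.4 CPM, and reads of the 2 genes could not be told apart there because counting ignored strand.

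Lin28a (ENSMUSG00000050966.9) and Lin28b (ENSMUSG00000063804.8) encode the proteins that block let-7 maturation, and neither rose. Lin28a had 159, 158 and 154 CPM in wild type, 125, 105, 109 and 116 CPM in Dicer ΔMT/ΔMT and 145, 119 and 112 CPM in Dicer SOM/SOM, all mutants lying below wild type. It fell by 0.46 (SE 0.10, adjusted p = 0.0096) in Dicer ΔMT/ΔMT, a call that held when each sample was left out in turn. In Dicer SOM/SOM it fell by 0.32 (SE 0.11, adjusted p = 0.043), but the call was lost without any 1 wild type sample (adjusted p from 0.076 to 0.10) and without SOM replicate 2 (0.12) or 3 (0.097). Controls of the paired-end run had 164, 128, 122 and 165 CPM, RNAi mutants 113 and 110 CPM and double mutants 128, 127, 114 and 97.2 CPM. The RNAi mutants were below all controls, whereas double mutants overlapped with them, and neither difference passed the test (-0.38, SE 0.17, adjusted p = 0.19, and -0.32, SE 0.14, adjusted p = 0.12). The controls with the high values were those with more ribosomal RNA counts. Among the 6 libraries with more such counts the differences were -0.56 (adjusted p = 0.011) and -0.42 (adjusted p = 0.034), and among those with fewer the double mutants differed by -0.15 (adjusted p = 0.77). With a term for these sets of libraries, the differences were -0.49 (adjusted p = 0.045) in RNAi mutants and -0.30 (adjusted p = 0.059) in double mutants.

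Lin28b, which has as many counted seed matches as Hmga2, passed the test in no comparison with edgeR. It was at 52.0, 43.6 and 46.0 CPM in wild type, 43.8 to 56.6 CPM in Dicer ΔMT/ΔMT and 34.5, 43.2 and 24.8 CPM in Dicer SOM/SOM. Log2 differences from wild type were 0.06 (SE 0.16, adjusted p = 0.85) and -0.44 (SE 0.17, adjusted p = 0.082), and without SOM replicate 2 the latter was -0.65 with an adjusted p of 0.017, while DESeq2 gave -0.45 and 0.037 with all samples. Paired-end controls had 50.9 to 62.6 CPM, RNAi mutants 58.2 and 61.5 CPM and double mutants 51.3 to 66.4 CPM, so all 3 groups overlapped. Differences from controls were 0.03 (SE 0.15, adjusted p = 0.94) and -0.01 (SE 0.12, adjusted p = 0.96).

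Arid3b (ENSMUSG00000004661.15), a DNA-binding protein with an ARID domain, had 59.4, 45.5 and 49.1 CPM in wild type, 40.1, 35.3, 34.0 and 42.5 CPM in Dicer ΔMT/ΔMT and 34.8, 21.8 and 21.5 CPM in Dicer SOM/SOM. Both mutants lay below wild type. It fell by 0.96 (SE 0.19, adjusted p = 0.0030) in Dicer SOM/SOM, the largest decrease among the 8 genes, while the log2 difference of -0.43 (SE 0.17) in Dicer ΔMT/ΔMT did not pass the test (adjusted p = 0.11), but did so with only the compared groups in the fit (-0.43, adjusted p = 0.025). The call in Dicer SOM/SOM held without each sample in turn. Controls of the paired-end run spread from 17.0 to 44.5 CPM, around the RNAi mutants at 23.8 and 21.5 CPM and the double mutants at 23.5 to 34.6 CPM. The 2 controls with more ribosomal RNA counts had 41.7 and 44.5 CPM and the 2 with fewer had 17.0 and 29.6 CPM. Log2 differences from controls were -0.55 (SE 0.31, adjusted p = 0.31) in RNAi mutants and -0.18 (SE 0.25, adjusted p = 0.67) in double mutants, and among the libraries with more ribosomal RNA counts the former was -0.92 (adjusted p = 0.0073). Exons of Arid3b overlap those of Gm17231 on the opposite strand, which was at 2.65 to 3.94 CPM. The longest identical stretch between their transcripts was 363 bases.

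**Figure D3:**
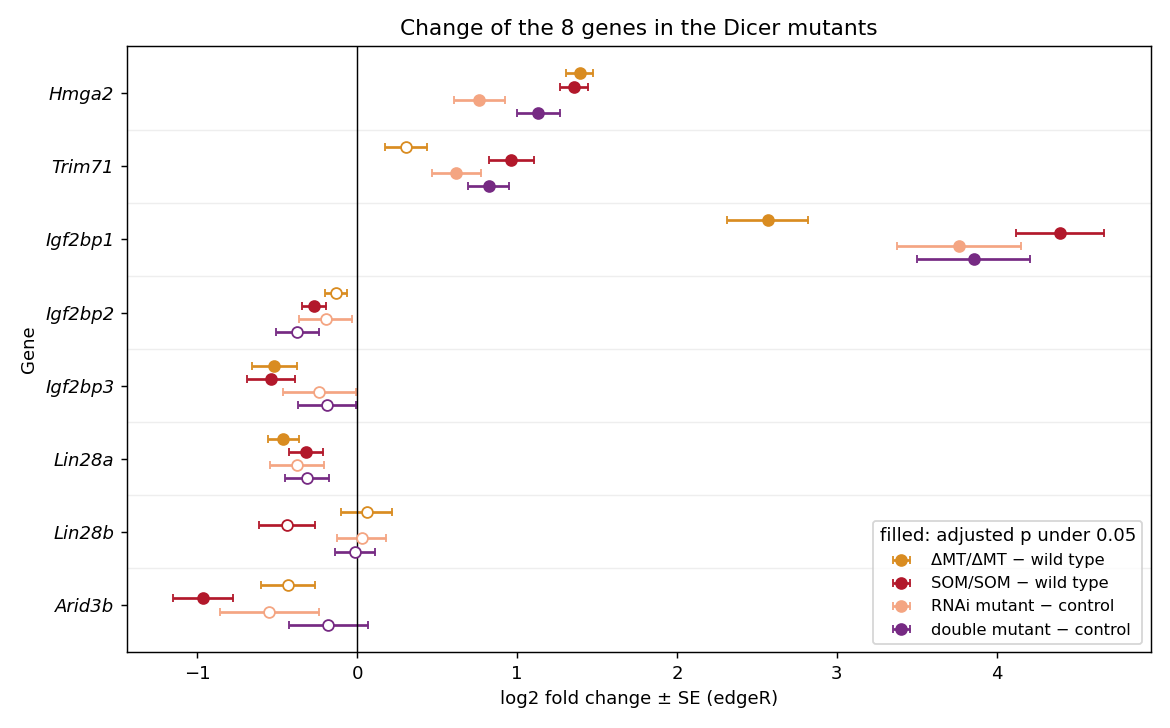
Log2 fold change of each gene (x axis, ± SE, edgeR) in 4 comparisons with wild type or control; filled points passed the test at an adjusted p under 0.05. Igf2bp1, Hmga2 and Trim71 lie right of 0 in all 4 comparisons, and the Igf2bp2, Igf2bp3, Lin28a and Arid3b points lie left of 0.

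Counted over the 8 genes, 2 were higher and 2 lower in Dicer ΔMT/ΔMT than in wild type, when 8.06% and 7.3% of the 23151 genes tested were. In Dicer SOM/SOM 3 were higher and 4 lower, when 14.5% and 14.2% of all genes were. The median log2 fold change of the 8 genes was -0.04 and -0.30, beside 0.01 and 0.02 for all genes tested, and the 8 genes moved in both directions. Without wild type replicate 1 or 2, 4 of the 7 calls in Dicer SOM/SOM were left, those of Hmga2, Trim71, Igf2bp1 and Arid3b. Between the 2 mutants, 2 of the 8, Trim71 and Igf2bp1, were higher in Dicer SOM/SOM and none was lower, when 4.03% and 3.32% of all genes were. Lin28b and Arid3b, at -0.50 and -0.53, had an unadjusted p of 0.011 and 0.012, and DESeq2 called both lower. With edgeR, Arid3b was called lower without SOM replicate 1, and Lin28b without SOM replicate 2.

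RNAi mutants had 3 of the 8 genes higher than controls and none lower, when 7.07% and 3.64% of the 20989 genes tested were, and 1 call, Igf2bp1, was left without RNAi replicate 1. Double mutants had the same 3 genes higher and none lower, when 12.3% and 8.84% of all genes were. They were Hmga2, Trim71 and Igf2bp1, also the 3 that were higher in Dicer SOM/SOM. Of the genes not called lower, Lin28a had an unadjusted p of 0.043 in RNAi mutants and 0.037 in double mutants, and Igf2bp2 one of 0.014 in the latter, where DESeq2 called it lower. RNAi and double mutants were compared with the same 4 controls, and likewise the single-end mutants with the same 3 wild type samples, so that comparisons within a run are not independent. The median of the 8 genes was -0.08 in RNAi mutants and -0.10 in double mutants, beside -0.02 and 0.00 for all genes. No gene of the 8 differed between double and RNAi mutants, where 0.31% of all genes were higher and 0.00476% lower; DESeq2 called none of the 8 either, and 1 of them, Hmga2, had an unadjusted p under 0.05. The largest differences among them were 0.37 for Hmga2 and for Arid3b, and those of Trim71 and Igf2bp1 were 0.20 (SE 0.16) and 0.09 (SE 0.37). Age classes, of at least 35 and at most 17 weeks, gave no call with edgeR among the 8 genes or any of the 18641 tested (0%). Igf2bp3, with a difference of 0.38 (SE 0.16), was the only one of the 8 with an unadjusted p under 0.05 in edgeR, as had 1022 of all genes, and DESeq2 called 50 genes but none of the 8.

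The effect of the SOM genotype was compared between runs in 1 fit of 21 samples, as the difference between Dicer SOM/SOM and wild type less that between RNAi mutants and controls. None of the 8 genes passed this test with edgeR or DESeq2, while 0.00806% of 24824 genes did with edgeR, and 2 of the 8, Hmga2 and Lin28b, had an unadjusted p under 0.05. The contrast was 0.56 (SE 0.19, unadjusted p = 0.0065, adjusted p = 0.39) for Hmga2, -0.50 (SE 0.23, unadjusted p = 0.042, adjusted p = 0.54) for Lin28b, 0.31 (SE 0.21) for Trim71 and 0.61 (SE 0.50) for Igf2bp1. Read type and instrument and the reference genotype differ between the runs and cannot be told apart here. CPM are shares of all counts, and in pooled cells fewer cells of a type and less RNA per cell cannot be told apart.

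Over all tested protein-coding genes, including any without an annotated 3' UTR, the median change was slightly lower with a seed match than without one. This held in each comparison with wild type or control, and the differences were not tested. In Dicer SOM/SOM, the median log2 fold change was -0.01 for 13804 genes without an 8mer or 7mer-m8, of which 14.7% were higher and 16.0% lower, and -0.03 for the 1481 genes with at least 1, of which 15.3% were higher and 19.1% lower. Genes with at least 2 matches (n = 183) had a median of -0.08, with 16.4% higher and 20.2% lower. In double mutants the medians were -0.02 without a match and -0.05 with at least 1, with 11.5% and 11.1% higher and 9.66% and 11.7% lower. With at least 2 matches (n = 185) the double mutant median was -0.04, and -0.07 without the 8 genes. RNAi mutants had medians of -0.02 without a match, -0.08 with at least 1 and -0.17 with at least 2 (n = 185). Of these classes 3.90%, 5.81% and 3.78% were lower in RNAi mutants, and 6.79%, 7.51% and 6.49% higher. In Dicer ΔMT/ΔMT the medians were -0.02 without a match, -0.04 with at least 1 and -0.08 with at least 2. With 8mers alone (515 and 510 genes) the medians in Dicer SOM/SOM and double mutants were both -0.04. Genes with matches had longer UTRs, with a median of 2377 bases against 969, and no correction for length was made.

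The 12 genes with at least 4 matches were picked out after their values were seen. Hmga2, Trim71, Igf2bp1 and Lin28b are among them, so their calls here repeat those given above. In Dicer SOM/SOM 4 of the 12 were higher (Igf2bp1, Trim6, Hmga2 and Trim71) and 2 lower (D10Wsu102e and Hic2). Of all genes tested there, 14.5% were higher and 14.2% lower. In double mutants the same 4 were higher and Hic2 lower, beside 12.3% and 8.84% of all genes. Of those outside the 8 genes of this report, only Trim6 was higher in either comparison. Trim6, a ubiquitin ligase gene with 6 matches, 5 of them 8mers, rose by 2.29 (SE 0.70, adjusted p = 0.031) in Dicer SOM/SOM and by 2.21 (SE 0.67, adjusted p = 0.031) in double mutants. Its samples were far apart, from 4.26 to 25.1 CPM in Dicer SOM/SOM against 1.096 to 3.05 CPM in wild type, and from 1.81 to 28.4 CPM in double mutants against 1.06 to 5.27 CPM in controls, where the groups overlapped. Nr6a1, a nuclear receptor gene with 8 matches, differed by 0.06 (SE 0.14, adjusted p = 0.78) and 0.12 (SE 0.14, adjusted p = 0.60), and Mcf2l with 7 8mers by 0.31 (SE 0.30) and -0.09 (SE 0.24), and neither passed the test. D10Wsu102e has an annotated UTR of 122583 bases.

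**Figure D4:**
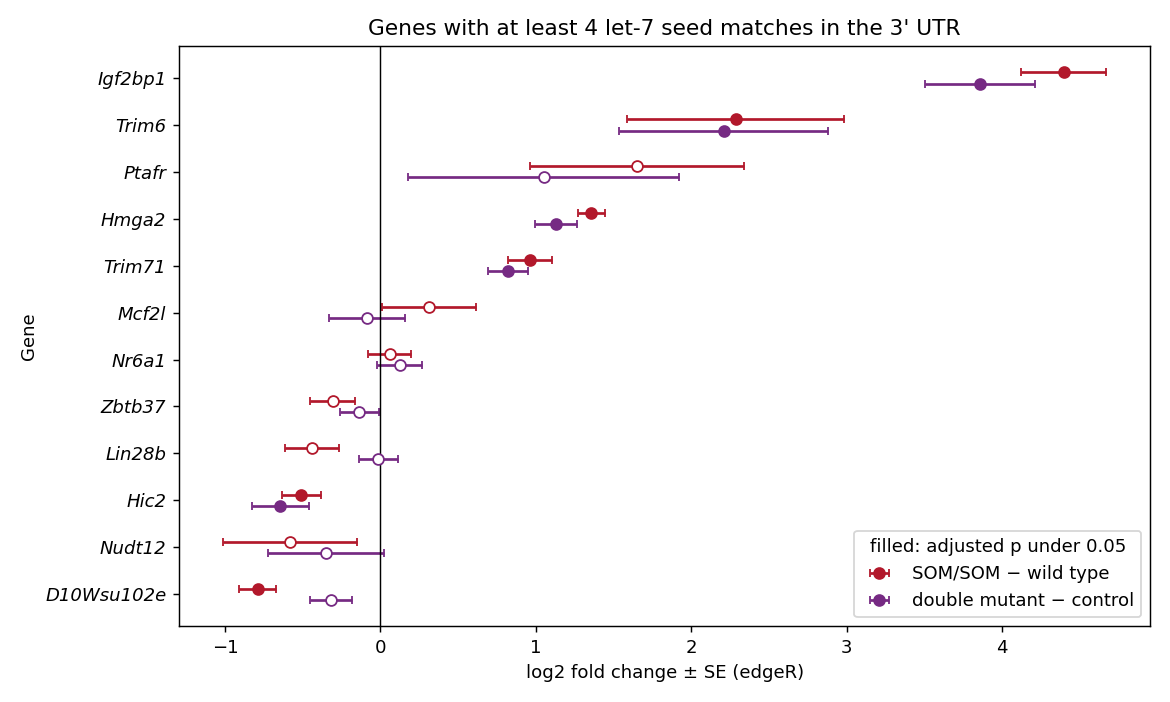
Log2 fold change (x axis, ± SE, edgeR) of the 12 genes with at least 4 let-7 seed matches in the 3' UTR, in Dicer SOM/SOM and in double mutants; filled points passed the test at an adjusted p under 0.05. Igf2bp1, Trim6, Hmga2 and Trim71 are filled right of 0 in both comparisons and Hic2 left of 0.

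A wider list of 34 let-7 targets had more members lower than higher. In Dicer SOM/SOM 3 of the 32 tested were higher and 8 lower, with a median of -0.14, when 14.5% and 14.2% of all genes were. In double mutants 1 of 31 was higher and 4 lower, with a median of -0.13, when 12.3% and 8.84% of all genes were. Those that passed the test in both comparisons were all lower, among them Igf1r, the IGF1 receptor, with log2 fold changes of -0.87 and -0.91, Lrig3 with -0.81 and -1.35 and Hic2 with -0.51 and -0.64. In Dicer ΔMT/ΔMT 2 of the 32 were higher and 4 lower, when 8.06% and 7.3% of all genes were, and in RNAi mutants none of 31 was higher and 3 were lower, when 7.07% and 3.64% of all genes were.

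Of 16 genes of microRNA processing and action, Dicer1 was the only one that passed the test in both Dicer SOM/SOM and double mutants. Ago1, an Argonaute gene, was higher in Dicer SOM/SOM (log2 fold change 0.61, adjusted p = 0.022), and Dgcr8, a partner of Drosha, and Zcchc6 (Tut7), a terminal uridyltransferase, were lower (-0.43, adjusted p = 0.019, and -0.52, adjusted p = 0.016). These 3 were named after their values were seen. Dgcr8 was also lower in Dicer ΔMT/ΔMT (-0.42, adjusted p = 0.023). Of 13 genes of let-7 precursors, 12 were found in the table and none passed the filter on low counts, all of them hairpin entries, so that these data do not give the level of let-7 precursors, and mature let-7 was not measured.

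The genes whose levels were most like those of the 3 risers were found by the lower of the Pearson r of the 2 runs, over 10 single-end and 11 paired-end samples and among 14175 genes with a mean of at least 1 CPM. For Hmga2 these were Cfap300 (r = 0.97 and 0.97) and Khdc1a (0.99 and 0.96), for Trim71 they included Sytl5 (0.95 and 0.96), and for Igf2bp1 a pair of genes without a symbol (0.98 and 0.98 for both). Among the lower genes, Igf2bp2 was most like Mansc1 (0.96 and 0.95) and Maco1 (0.93 and 0.96), Igf2bp3 most like Ctif (0.98 and 0.95) and Rnf169 (0.93 and 0.92), Lin28a most like Map3k4 (0.91 and 0.93) and Zbed4 (0.91 and 0.93), and Arid3b most like Cbl (0.85 and 0.91) and Nkapd1 (0.88 and 0.84). The samples of a run share their genotypes, so these values describe the order of the groups. Between Hmga2 and Igf2bp1 r was 0.86 and 0.92, and between Hmga2 and Lin28a it was -0.83 and -0.60.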

How the data were processed

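GV oocyte RNA-seq of 22 mouse samples was analysed from the table of expected counts that the authors deposited. They mapped reads with STAR 2.5.3a to mm10 (GRCm38), kept multimapping reads, and counted them with featureCounts on GENCODE M15 without regard to strand, as fractions over several places or genes. Reads from antisense neighbours and close copies are therefore shared. Of the 8 genes, Hmga2, Lin28a, Trim71, Igf2bp1, Igf2bp3 and Arid3b overlap an exon of another gene, and no other gene's transcript matched one of theirs at 95% identity or more over 50% of its length.

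The deposited expected counts, which were not normalized, were rounded and each run was fitted apart with edgeR 4.0.16 (R 4.3.3): TMM, filterByExpr (minimum count 10, minimum total 15, groups of 1 sample not used for the filter), quasi-likelihood F test, and Benjamini-Hochberg adjustment over all tested genes, called at 0.05. SE is the log2 fold change divided by the square root of F. The fit did not include the lone Dicer ΔMT/WT sample, while the lone piRNA mutant stayed in its fit but was not compared. Fits with age class and of both runs together followed the same steps. CPM use TMM library sizes and RPKM the gene lengths of the table. On simulated counts the steps recovered most of the changed genes in every comparison tested. Symbols were mapped from GENCODE gene IDs. Alternatives were DESeq2 1.42.0, its size factors in edgeR, no filter, only the compared groups, a replicate block, an age term, younger animals only and each sample left out. Terms and subsets for ribosomal RNA counts, parted at 1000 CPM of Gm42418, were added after the data were seen. The 8 genes, all gene lists and tests were chosen with earlier results of these data known. The text names all 8 genes, genes of the wider lists called in the same direction in Dicer SOM/SOM and double mutants (at most 6 a list) with Dicer1, and for each called gene the 2 genes most like it; some genes that this rule names are not reported here. The authors' further tables were not used, other than the list of putative RNAi targets for its gene names. Library totals set the precision, and floors cover counting error only, since the reads carry no molecular identifiers.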

Additional observations from a re-analysis of the deposited data

Results flagged for a closer look

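Hmga2 was at 121 CPM in Dicer ΔMT/ΔMT replicate 1, apart from the other 3 samples of that group at 107 to 109 CPM. The gap to the nearest of them was 0.866 of the whole range of the group, above Dixon's 95% critical value for 4 samples. It was the only one of 24 sets of 4 samples (8 genes in 3 groups) that stood out, and chance flags about 1 in 20 such sets.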

How the results depend on the processing

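The rises of Hmga2 and Igf2bp1 in Dicer ΔMT/ΔMT, Dicer SOM/SOM and double mutants, and that of Trim71 in the last 2, passed the test under every alternative tried. DESeq2 called 4 of the 8 genes between Dicer SOM/SOM and Dicer ΔMT/ΔMT instead of 2, adding lower Lin28b and Arid3b, and a fit of only the compared groups called 4 instead of 7 in Dicer SOM/SOM against wild type, a fit with fewer samples, while for Dicer ΔMT/ΔMT it called 5 instead of 4, adding lower Arid3b. Among the 6 paired-end libraries with more ribosomal RNA counts, 5 instead of 3 were called in RNAi mutants, adding lower Lin28a and Arid3b. With each sample left out in turn, the calls ranged from 4 to 7 in Dicer SOM/SOM against wild type and from 1 to 3 in RNAi mutants against controls, with fewer samples in each fit. Without the filter on low counts, Igf2bp3 in Dicer ΔMT/ΔMT (adjusted p = 0.0505) and Lin28a in Dicer SOM/SOM (0.072) were not called. Over all alternatives, calls among all genes ranged from 4764 to 7184 in Dicer SOM/SOM (6627 as reported), from 2203 to 5307 in Dicer ΔMT/ΔMT (3556), from 899 to 2776 between these (1702), from 1077 to 2967 in RNAi mutants (2247), from 1488 to 5255 in double mutants (4447), from 24 to 170 between double and RNAi mutants (66), from 0 to 150 for age class (0) and from 0 to 121 for the difference between runs (2).

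Some values near 0 that had not passed the test changed sign, and none passed it then. Under the replicate block, Igf2bp3 was 0.022 in Dicer SOM/SOM against Dicer ΔMT/ΔMT and 0.17 in RNAi mutants, Lin28b -0.017 in RNAi mutants, Arid3b 0.077 in double mutants, and Igf2bp1 -0.030 between double and RNAi mutants. Lin28b in double mutants was 5.8e-05 with only the compared groups, 0.16 among younger animals and 0.059 among libraries with more ribosomal RNA counts. In RNAi mutants it was -0.041 with a term for those libraries and -0.014 among them. Arid3b in double mutants was 0.26 among libraries with fewer such counts, and Hmga2 was 0.042 with only SOM replicate 2 in Dicer SOM/SOM against Dicer ΔMT/ΔMT. Between double and RNAi mutants, Igf2bp1 was -0.18 with an age term and -0.099 among younger animals. With each sample left out, ranges that crossed 0 included -0.18 to 0.12 for Igf2bp3 and -0.082 to 0.0097 for Hmga2 in Dicer SOM/SOM against Dicer ΔMT/ΔMT. For Lin28b they were -0.016 to 0.13 in Dicer ΔMT/ΔMT, -0.080 to 0.054 in double mutants and -0.038 to 0.076 in RNAi mutants, and for Igf2bp1 between double and RNAi mutants the range was -0.42 to 0.91. For age class Arid3b ranged from -0.18 to 0.31, Lin28b from -0.12 to 0.045 and Igf2bp2 from -0.023 to 0.17, and for the difference between runs Lin28a from -0.042 to 0.17 and Igf2bp2 from -0.17 to 0.013. The cause was not tested.

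Deviations from the group means had r from -0.07 to 0.18 over pairs of samples with the same number, and the numbers were not taken as pairs. Samples with different numbers were not compared in this way, so whether the same number goes with a shared deviation was not tested. With the replicate block 5 genes were called in Dicer ΔMT/ΔMT (adding Arid3b), 7 in Dicer SOM/SOM, 2 between these, and 3, 3 and 0 in RNAi mutants, double mutants and between them; over all genes it called 1228 instead of 2247 in RNAi mutants. RNAi mutants had 2 libraries and SOM replicate 3 the fewest counts, 6468380.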
